A study of Mus musculus with 4 samples.

Results

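Calb1, Calb2, Pvalb, Nos1 and Reln are neuronal marker genes that were taken from the count matrix by their symbols, and all 5 were found among its 31053 genes. They were described across the cell classes, the excitatory (EN) and inhibitory (IN) neuron subtypes and the stages of a single-nucleus RNA-sequencing study of mouse superior colliculus, a layered part of the midbrain roof that takes input from the eyes and other senses. Tissue of C57BL/6J mice, with no genetic or drug treatment named, was taken on embryonic day 19 (E19) and after birth on day 4 (P4), day 8 (P8) and day 21 (P21). A single library of nuclei from the pooled tissue of several animals stood for a stage, so replicate error between stages could not be measured. The labels name neither the sex nor the number of the animals. The authors' annotation placed 9724 nuclei in 9 classes and 35 subtypes, among them 4093 excitatory nuclei in 13 subtypes and 3459 inhibitory nuclei in 12 subtypes.

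Calb1 encodes calbindin, Calb2 calretinin and Pvalb parvalbumin, small cytosolic proteins that bind calcium through EF-hand loops and buffer its rise after electrical activity. Nos1 encodes neuronal nitric oxide synthase, which is switched on by calcium and calmodulin and makes the diffusible messenger nitric oxide. Reln encodes reelin, a large secreted glycoprotein that acts through the receptors Vldlr and Lrp8 and the adaptor Dab1 to place migrating neurons in layers and, later, to tune synapses. All are widely used to tell neuron types apart, and the calcium-binding proteins are classical markers of tiers and cell types in the superior colliculus.

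The 3 calcium-binding proteins share the calcium-binding loop, and 1 loop of each is printed to show how alike the family is in sequence. The loops were found in the GENCODE M21 transcripts with the PROSITE EF-hand pattern, which matched 4 loops in calbindin, 5 in calretinin and 2 in parvalbumin. Capitals mark the codons of loop positions 1, 3, 5 and 12, whose residues contribute to holding the calcium ion. Each printed loop lies within 1 coding exon, on GRCm38 (mm10), and reads 5′ to 3′ on the coding strand.
Calb1 loop 2, exon 5, chr4:15895644-15895679, plus strand: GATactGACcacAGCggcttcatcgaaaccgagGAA
Calb2 loop 3, exon 5, chr8:110149362-110149397, minus strand: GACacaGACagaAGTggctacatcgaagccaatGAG
Pvalb loop 1, exon 3, chr15:78202526-78202561, minus strand: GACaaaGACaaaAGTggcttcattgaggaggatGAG
Calbindin (261 residues) and calretinin (271 residues) were identical at 158 of 260 aligned residues (60.8%). Their transcripts nevertheless shared no run of identical bases longer than 12, and the longest run that Pvalb shared with either was 11.

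The gene Calb1 (ENSMUSG00000028222) spans chr4:15881264-15908064, Calb2 (ENSMUSG00000003657) chr8:110137502-110168210 and Pvalb (ENSMUSG00000005716) chr15:78191114-78206400, and none of these overlaps another annotated gene. Nos1 (ENSMUSG00000029361) spans chr5:117781032-117958840, and Reln (ENSMUSG00000042453) lies on the same chromosome at chr5:21884454-22344702. An antisense gene inside Nos1, Gm26995, held 12 unique molecular identifiers (UMIs) in all nuclei against 2703 for Nos1. Within Reln, the antisense genes Gm10475 and Gm16110 held 153 and 4 UMIs against 21503. No source used here states whether the count was by strand, and without strand the reads of an antisense gene and its host cannot be told apart.

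Levels are given as UMIs per 1000000 UMIs of the summed nuclei (CPM), with 95% exact Poisson intervals that cover counting error only. Runs of 4 values are in the order E19, P4, P8, P21. Gene lengths differ, and their part in CPM was not tested, so levels are compared between groups of nuclei and never between genes. The libraries held 2249 to 2585 nuclei and 19277512 to 31325079 UMIs, and depth rose with age, from a median of 8051.5 to 19601 UMIs in excitatory nuclei and from 6075 to 14009.5 in inhibitory nuclei. Shares of nuclei with a UMI are therefore given also after every nucleus was thinned to 2300 UMIs, a depth that all neurons reached. Background was read from 4 classes in which these neuronal genes are not typical, namely the oligodendrocyte lineage, vascular leptomeningeal cells, microglia and endothelial cells, pooled to 1025 nuclei with medians of 4400 to 6694.5 UMIs per library. Of 31 markers of the annotated classes, 23 were highest in their own class, and the 3 markers of the epithelial class were all highest in astrocytes. The cerebellar markers Pcp2, Gabra6 and Cbln3, checked because cerebellum borders the dissected tissue and its neurons use several of these genes, were at 0.369 CPM or less in both neuron classes, and the dopaminergic markers Th and Slc6a3 and the cholinergic markers Chat and Slc18a3 were under 1 CPM there, while Ddc and Slc5a7 of the same lists reached 4.19 and 2.97 CPM. Of the thalamic markers, Prkcd reached 5.64 CPM, but Lef1 stood at 485 CPM in excitatory and 354 in inhibitory neurons and Tcf7l2 at 508 and 117. Both were higher still in non-neuronal classes (855 CPM in endothelial cells and 841 in astrocytes), and the part of neighbouring tissue in the results was not tested. Libraries shared 9 cell barcodes.

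**Figure D1:**
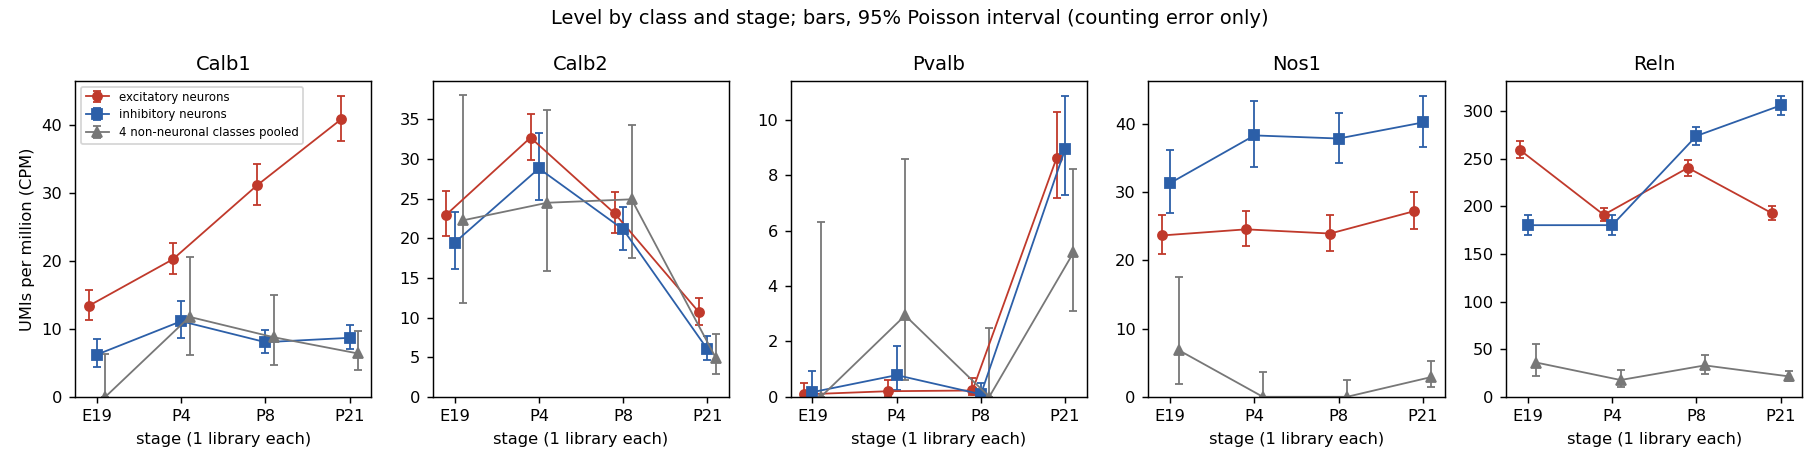
Level of each gene (y axis, CPM, 1 scale per gene) at each stage (x axis) in excitatory neurons (red circles), inhibitory neurons (blue squares) and 4 non-neuronal classes pooled (grey triangles); bars are 95% Poisson intervals for counting error. Calb1 in excitatory neurons goes from 13.4 to 40.8 CPM, Calb2 is lowest at P21 in all 3 groups, Pvalb in neurons is near 0 until P21, and Nos1 is higher in inhibitory neurons at every stage.

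Calb1 was higher in excitatory than in inhibitory neurons. Its excitatory level, over a mix of subtypes that differed between stages, was higher at each later stage. Its excitatory level was 13.4, 20.2, 31.1 and 40.8 CPM from E19 to P21. Inhibitory neurons held 6.21, 11.1, 8.03 and 8.67 CPM at the same stages, with no order by age. As a ratio, the excitatory level was 2.15 times the inhibitory one at E19 (95% interval 1.49 to 3.17) and 4.71 times at P21 (3.80 to 5.89). The mean log2 ratio of inhibitory to excitatory neurons, computed with 5 CPM added to both, was −1.14 ± 0.55 (SD over 4 libraries), and Calb1 was lower in inhibitory neurons in 4 of 4 libraries.

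A gene was called higher or lower where its log2(CPM + 5) ratio reached 1 in size with at least 20 CPM in the higher group. By that rule Calb1 was the 1 of 4 tested genes of interest called lower in inhibitory than in excitatory neurons, against 1.17% of 8209 genes, and 0 of the 4 were called higher, against 0.962%. Pvalb did not reach 20 CPM in either neuron class and was not among those tested. The mean stayed below 0 but missed the limit of 1 with 20 CPM added (−0.67), without EN6, the subtype with most Calb1 (−0.94), and without the P21 library (−0.94). A call here describes the size of a difference. The class ratios were taken within each of the 4 libraries, and no p-value was computed for them because the classes were annotated on the same nuclei.

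From E19 to P21 the excitatory Calb1 level differed 3.06-fold (2.56 to 3.67), a log2 ratio of 1.32, and Calb1 was the 1 of 4 tested genes of interest called higher there, against 5.35% of 7650 genes. Without EN6 the fold was 2.19 (1.81 to 2.65) and the log2 ratio 0.90, and with 20 CPM added it was 0.87, both short of the limit. In the inhibitory class the corresponding fold was 1.40, with an interval of 0.948 to 2.10 that held 1. Thinning gave the same order for excitatory nuclei: 3.21% had a Calb1 UMI at E19 (95% exact Clopper-Pearson interval 2.34 to 4.30), then 4.98%, 6.81% and, at P21, 9.82% (7.69 to 12.3). As deposited these shares were 8.22%, 15.8%, 26.3% and 32.4%. Thinned shares in inhibitory neurons were 1.63% to 2.03%, and in the pooled non-neuronal classes 0% to 2.82%, and the inhibitory level was 0.946 times that of the pooled classes at P4 (0.509 to 1.92) and 1.36 times at P21 (0.851 to 2.27). For the inhibitory class as a whole, Calb1 was thus not resolved from background after birth, although its subtype IN6 lay above it at P21. The excitatory level was 1.72 times that of the pooled classes at P4, with an interval of 0.970 to 3.37 that held 1, and 6.41 times at P21 (4.19 to 10.3).

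EN6 held the highest mean level of Calb1, 103 ± 73.0 CPM (SD, n = 4 libraries). Its values were 14.9 CPM at E19, from 3 UMIs in 30 nuclei, and then 114, 92.0 and 192 CPM. Every postnatal library of EN6 was above 90 CPM, whereas the E19 library was close to the excitatory average. By P21, 84.4% of EN6 nuclei had a Calb1 UMI, or 34.4% after thinning. EN6 was 9.38% of excitatory nuclei at P21 and held 33.7% of the excitatory Calb1 UMIs, and the other excitatory subtypes together were then at 29.1 CPM, against 13.3 at E19.

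EN5 followed with 38.3, 40.0, 59.8 and 90.7 CPM from E19 to P21, and EN9 with 18.3, 51.4, 52.7 and 79.1. Both subtypes were highest at P21. EN12 averaged 35.2 ± 18.4 CPM. EN6, EN5, EN9 and EN12 were 2.24%, 3.06%, 2.24% and 1.64% of excitatory nuclei at E19 and 9.38%, 10.4%, 6.60% and 6.01% at P21. The part of this difference in make-up in the excitatory class level was not tested. Between EN6, EN5, EN9 and the subtypes after them the mean ± SD ranges of neighbours in the order overlapped, as they did for all 24 neighbouring pairs of the 25 neuron subtypes.

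The direction of the Calb1 difference between ages depended on the subtype. Among the 11 excitatory subtypes with enough nuclei at both ages, the 95% interval of the E19 to P21 fold lay above 1 in 6 (EN1, EN2, EN5, EN6, EN9 and EN12) and below 1 in 2 (EN4 and EN8). The highest of these folds was that of EN6, 12.9, although 3 UMIs at E19 left an interval of 4.37 to 63.3. EN4 went the other way, from 26.6 to 4.64 CPM, a ratio of 0.174 (0.0554 to 0.475).

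IN6 had the highest mean Calb1 level of the inhibitory subtypes, and others held larger shares of UMIs than of nuclei at single stages. IN8 was 7.39% of inhibitory nuclei at E19 and held 21.6% of the inhibitory Calb1 UMIs (8 of 37). For IN1 at P4 these shares were 27.8% and 59.2%, and 11 of its 42 UMIs came from 1 nucleus. For IN5 at P21 the shares were 10.9% and 20.4%. IN6 had 6.63, 17.8, 28.3 and 58.7 CPM from E19 to P21, and its E19 to P21 fold was 8.85 (2.28 to 75.8). At P21 the IN6 interval, 41.3 to 80.9 CPM, overlapped that of the excitatory class, 37.6 to 44.2, while the lowest subtype, IN3, averaged 2.42 ± 2.87 CPM. Among single nuclei, 58 in the whole data set had 5 or more Calb1 UMIs, 22 of them EN6 nuclei, and 18 of those 22 came from the P21 library.

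**Figure D2:**
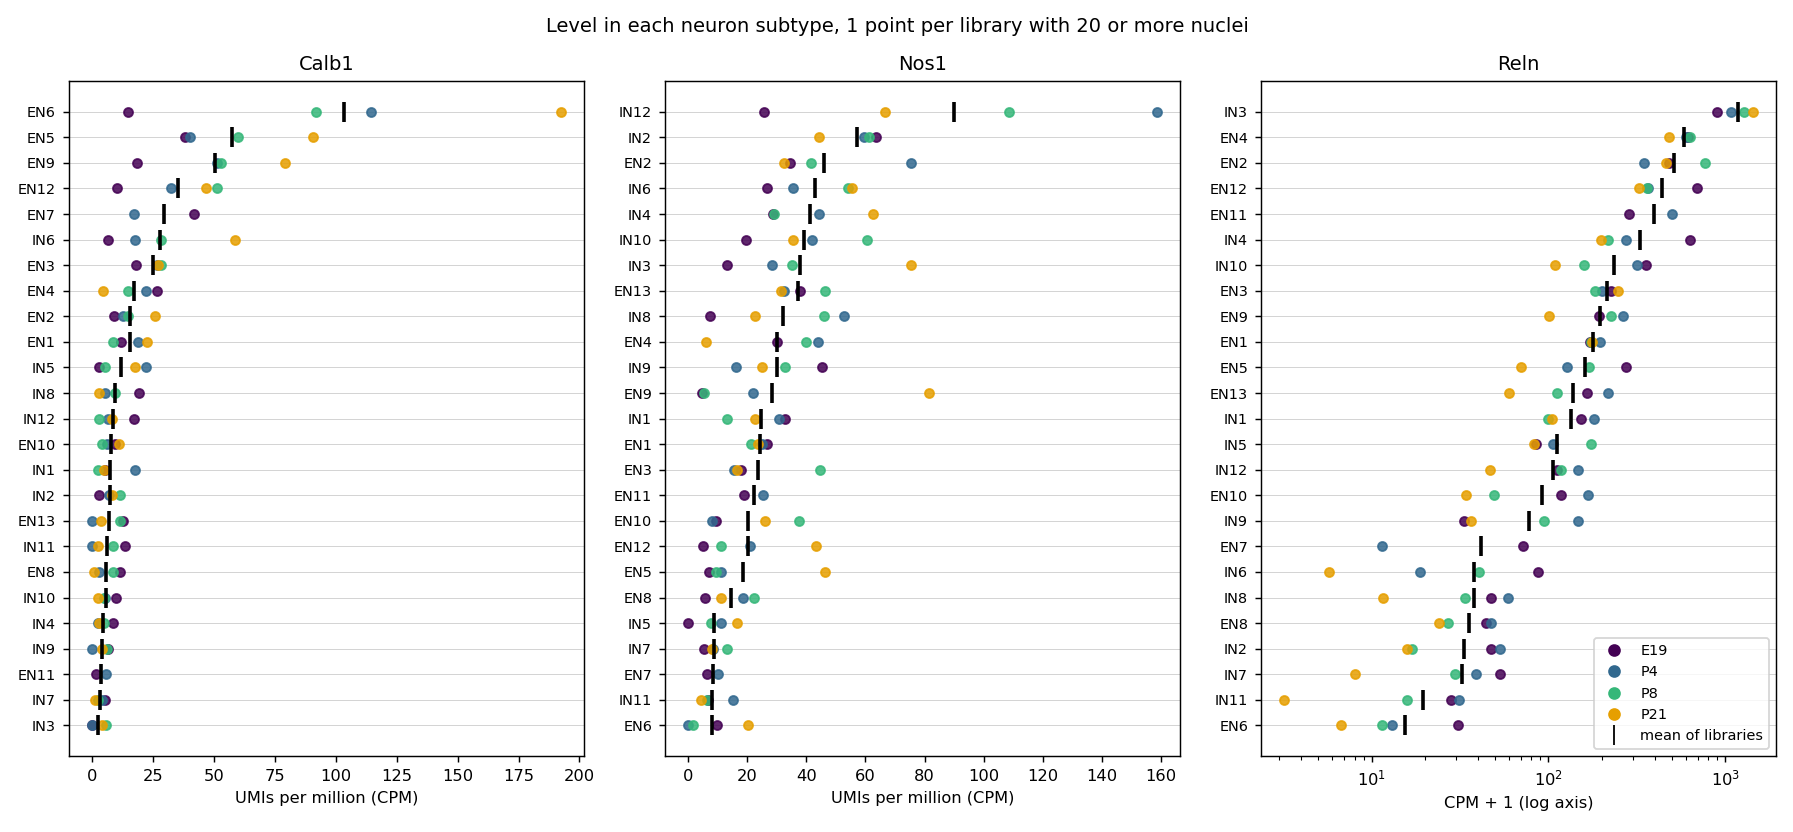
Level (x axis, CPM; log axis of CPM + 1 for Reln) of Calb1, Nos1 and Reln in each neuron subtype (y axis, ordered by mean); each point is 1 library with at least 20 nuclei of the subtype, coloured by stage, and the black tick is their mean. EN6, IN12 and IN3 lead the 3 orders with means of 103, 89.9 and 1176 CPM, and for Reln the IN3 points lie to the right of all others.

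Calb2 differed little between the neuron classes and was lowest at P21 in both. Excitatory neurons held 23.0, 32.7, 23.1 and 10.7 CPM from E19 to P21, and inhibitory neurons 19.5, 28.8, 21.1 and 6.02. Non-neuronal classes were at the same height until P8, with 22.3, 24.5, 24.9 and 4.92 CPM at the 4 stages. After thinning, 5.68% of excitatory, 4.03% of inhibitory and 6.42% of pooled non-neuronal nuclei had a Calb2 UMI at E19. At P21 the excitatory level was 2.17 times that of the pooled classes (1.31 to 3.82). The inhibitory level was 1.22 times that of the pool (0.711 to 2.22). The part of background in the neuronal Calb2 UMIs was not tested. Astrocytes had 33.5, 44.6, 17.7 and 12.9 CPM.

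The late difference in Calb2 was seen across subtypes. From P4 to P21 the excitatory level differed by a factor of 0.327 (0.271 to 0.392) and the inhibitory level by 0.209 (0.156 to 0.277). Intervals lay below 1 in 9 of 11 excitatory and 9 of 12 inhibitory subtypes over that span, and above 1 in 0. By the size rule, Calb2 was the 1 of 3 tested genes of interest called lower at P21 than at P8 in inhibitory neurons, against 3.28% of 7328 genes, with a log2 ratio of −1.25 that was −0.66 with 20 CPM added. Background in the non-neuronal classes was lower at P21 too, and its part in the difference was not tested.

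EN3 was the excitatory subtype with the highest Calb2 mean, 44.5 ± 16.9 CPM (SD, n = 4). It held 30.4, 57.5, 60.6 and 29.3 CPM from E19 to P21. From P4 on, the EN3 interval lay above that of the pooled non-neuronal classes in each library, for instance 22.4 to 37.7 CPM against 2.87 to 7.88 at P21. Its E19 to P21 fold was 0.965 (0.603 to 1.58), so that no difference was resolved between those ages. EN3 was 13.2% of excitatory nuclei at P21 and held 38.5% of the excitatory Calb2 UMIs.

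EN7, a subtype present almost only at E19 and P4, held 35.3 and 34.9 CPM of Calb2 at these stages, and EN11 held 27.6 and 37.0. The rest of the excitatory class was then at 22.6 and 32.2 CPM outside EN7, and at 22.7 and 32.5 outside EN11. Both subtypes had under 20 nuclei at P8 and P21. Their means in the order thus leave out P21, where Calb2 was lowest, while those of the other neuron subtypes include it. Of 79 nuclei with 3 or more Calb2 UMIs, 21 were EN3 and 20 EN1 nuclei. In the order of subtypes 0 of 24 neighbouring pairs were separated by their mean ± SD ranges, whose SD includes differences between stages. Subtypes further apart in the order could differ. With UMIs summed over libraries, EN1 was at 24.1 CPM (21.8 to 26.6) and EN12 at 6.81 (4.16 to 10.5), over different mixes of stages. The mean log2 ratio of inhibitory to excitatory neurons was −0.24 ± 0.18, with Calb2 lower in inhibitory neurons in 4 of 4 libraries but an interval that excluded 1 in the P21 library alone, where the ratio was 0.563 (0.417 to 0.754).

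Pvalb was almost unseen before P21 and then appeared in both neuron classes. All neurons together held 2, 8, 4 and 227 Pvalb UMIs from E19 to P21. The P21 level was 8.63 CPM (7.19 to 10.3) in excitatory and 8.94 CPM (7.28 to 10.9) in inhibitory neurons, a ratio of 1.04 (0.789 to 1.36). In all neurons the P8 to P21 fold was 53.2 (20.5 to 197).

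At P21, 13.2% of excitatory and 11.1% of inhibitory nuclei had a Pvalb UMI, but thinning left 1.76% (0.912 to 3.05) and 2.30% (1.34 to 3.65). The pooled non-neuronal classes held 0, 3, 0 and 18 Pvalb UMIs at the 4 stages, or 0, 2.94, 0 and 5.21 CPM (3.09 to 8.23 at P21), and their thinned share at P21 was 1.84% (0.843 to 3.46). At P21 the excitatory level was 1.66 times that background (1.01 to 2.88) and the inhibitory level 1.72 times (1.03 to 3.01). Thus the thinned share of neurons with Pvalb was not above background at this depth.

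IN7 led the neuron subtypes at P21 with 23.4 CPM (14.3 to 36.2), from 20 UMIs in 64 nuclei, followed by IN9 with 23.1, IN10 with 19.9 and EN9 with 17.7. In the earlier libraries all of these were at 0 UMIs. The lower bounds of the P8 to P21 folds were 5.24 for IN7, 3.37 for IN9, 2.66 for IN10 and 4.66 for EN9. From E19 to P21 they were 1.11, 0.810, 0.886 and 0.926 in the same order, so that a difference was not resolved for IN9, IN10 and EN9. Nor was it from P4 to P21 for IN9 (0.650) and IN10 (0.836). The intervals of IN7, IN9, IN10 and EN9 all lay above 8.23 CPM, the upper bound of the pooled non-neuronal classes at P21. These subtypes were picked as the highest by the same P21 values. Among single non-neuronal subtypes, oligodendrocyte precursor cells held 13.4 CPM at P21, from 4 UMIs. Epithelial cells, which were not in the pool, had a highest library value of 14.6 CPM. EN12, with 41 nuclei at P21, had 0 Pvalb UMIs. With 3 UMIs taken as the limit for 0, less than the exact interval allows, its level was up to 2.45 CPM. No nucleus in the data had more than 4 Pvalb UMIs, so no group of strongly positive nuclei was seen.

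**Figure D3:**
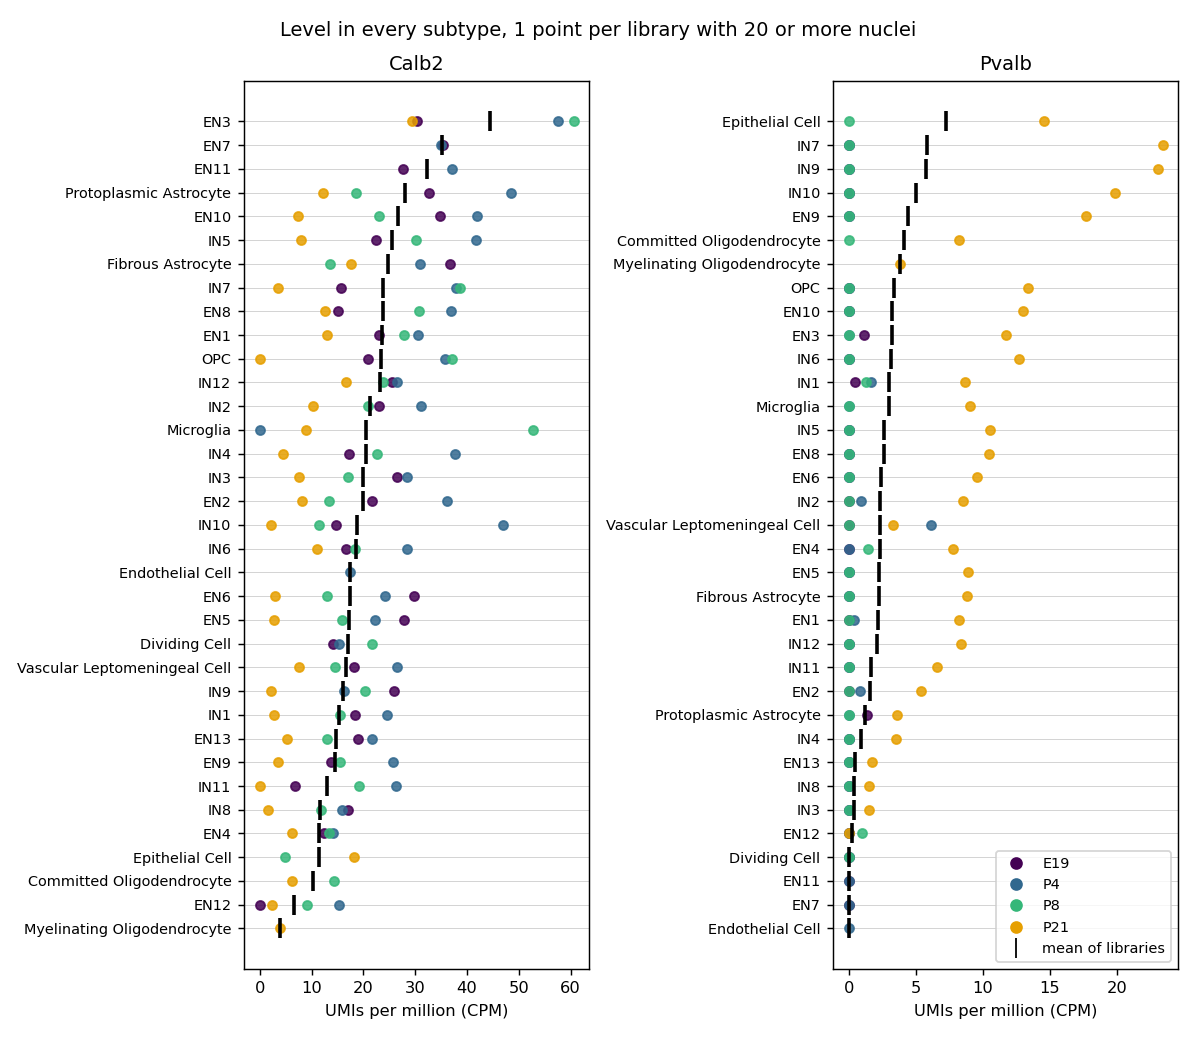
Level (x axis, CPM) of Calb2 and Pvalb in every subtype (y axis, ordered by mean); points are libraries with at least 20 nuclei of the subtype, coloured by stage, and black ticks are means. Calb2 points of glia and neurons cover the same range apart from EN3 at P4 and P8 (57.5 and 60.6 CPM), and Pvalb points of neurons reach 23.4 CPM at P21 and 1.66 CPM earlier, beside 6.09 CPM in vascular leptomeningeal cells at P4.

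Nos1 was a neuronal gene with a modest lead of the inhibitory class that recurred in each library. Inhibitory neurons held 31.4, 38.4, 37.9 and 40.3 CPM from E19 to P21, and excitatory neurons 23.7, 24.6, 24.0 and 27.2. Pooled non-neuronal classes were at 6.85, 0, 0 and 2.89 CPM. Inhibitory neurons were thus at least 13.1 times the non-neuronal level at P4 and at least 18.8 times at P8, with 3 UMIs taken as the upper limit for 0.

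The inhibitory to excitatory ratio of Nos1 was 1.33 (1.09 to 1.60), 1.56 (1.32 to 1.84), 1.58 (1.36 to 1.84) and 1.48 (1.29 to 1.69) in the 4 libraries. The mean log2 ratio was 0.49 ± 0.10, below the size that was called. Thinned shares of nuclei with Nos1 stood at 4.82%, 7.59%, 6.89% and 8.65% in inhibitory and 3.51%, 4.73%, 5.07% and 5.28% in excitatory neurons, against 0% to 2.75% in the pooled non-neuronal classes. As deposited, the inhibitory shares ran from 11.3% to 27.7% and the excitatory ones from 9.04% to 24.8%. From E19 to P21 the level differed 1.28-fold in inhibitory neurons (1.08 to 1.53) and 1.15-fold in excitatory neurons (0.984 to 1.35).

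Nos1 UMIs were spread unevenly over the nuclei of both neuron classes. The 1% of excitatory nuclei with most Nos1 held 44.7%, 30.1%, 18.7% and 23.1% of the excitatory UMIs from E19 to P21, and the corresponding inhibitory shares were 25.1%, 28.2%, 16.2% and 12.1%. At E19, 121 of 1338 excitatory nuclei had a Nos1 UMI and 15 had 5 or more. The highest nucleus of all was an EN12 nucleus at P21 with 42 Nos1 UMIs. Without it the EN12 level at P21 went from 43.3 CPM to 9.30 (4.64 to 16.6), and the excitatory class from 27.2 to 24.4 CPM, which put the inhibitory to excitatory ratio at 1.65. Across the data 117 nuclei had 5 or more Nos1 UMIs, and EN1 with 25, IN2 with 17 and EN2 with 16 held the most.

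IN12 had the highest Nos1 mean, 89.9 ± 57.0 CPM (SD, n = 4), on 22 to 44 nuclei per library. Its values were 25.6, 159, 109 and 66.6 CPM from E19 to P21. At P4, 12 of the 24 UMIs came from 1 nucleus, and the level without it was 83.5 CPM (43.2 to 146). IN2 was steadier and came next, at 63.7, 59.6, 61.1 and 44.3 CPM. It was 18.5% of inhibitory nuclei at E19 and held 36.9% of the inhibitory Nos1 UMIs there.

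EN2 followed with 34.4, 75.6, 41.5 and 32.4 CPM, highest at P4. Neighbours in this order overlapped in their mean ± SD ranges in all 24 pairs. The lowest mean was that of EN6, 7.94 ± 9.19 CPM, the subtype that led for Calb1.

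Single subtypes differed between ages in Nos1 by more than the classes did. IN3 had 13.2, 28.4, 35.1 and 75.3 CPM from E19 to P21, a 5.68-fold difference (2.17 to 21.1), and its thinned share of Nos1 nuclei went from 2.99% to 15.9%. EN9 had 4.57 (1 UMI), 22.0, 5.46 and 81.4 CPM, and at P21 60.0% of its nuclei had a Nos1 UMI. EN5 went from 6.96 to 46.3 CPM, with a fold of 6.64 (1.75 to 56.3). EN4 went the opposite way, with 30.2, 43.9, 39.8 and 6.19 CPM.

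Counted over subtypes, the E19 to P21 interval for Nos1 lay above 1 in 3 of 11 excitatory (EN5, EN9 and EN12) and 3 of 12 inhibitory subtypes (IN3, IN4 and IN5), and below 1 in 1 of each (EN4 and IN2). The EN12 entry rests on the nucleus with 42 UMIs. IN3 held 2.14% of inhibitory Nos1 UMIs at E19 and 33.0% at P21, while the other inhibitory subtypes together were at 32.3 and 32.8 CPM.

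Reln was higher in excitatory neurons at E19 and in inhibitory neurons at P21. Excitatory neurons held 260, 191, 241 and 193 CPM from E19 to P21, and inhibitory neurons 180, 180, 274 and 306. The inhibitory to excitatory ratio was 0.695 (0.647 to 0.745), 0.943 (0.880 to 1.01), 1.14 (1.08 to 1.20) and 1.59 (1.51 to 1.67). Over the 4 libraries the mean log2 ratio was therefore 0.06 ± 0.49, with 2 libraries on each side. With every subtype weighted alike the inhibitory class was not higher at P8 and P21 (log2 ratios −0.39 and −0.07), nor was it without the subtype IN3 (−1.48 and −1.52). Pooled non-neuronal classes were at 17.6 to 36.0 CPM, and both neuron classes were between 5.01 and 14.3 times as high.

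Thinned shares of nuclei with Reln gave no such order for inhibitory neurons. Of inhibitory nuclei, 20.4%, 22.1%, 27.8% and 21.1% had a Reln UMI after thinning at the 4 stages, and of excitatory nuclei 31.8%, 23.2%, 28.6% and 23.2%. As deposited the shares were 33.5%, 37.8%, 45.3% and 34.1% and 54.5%, 48.9%, 57.7% and 48.7%. At P21 inhibitory neurons thus held more Reln than at E19 in a like share of nuclei.

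IN3 held the highest Reln level of all subtypes, 904, 1079, 1282 and 1438 CPM from E19 to P21. Its mean of 1176 ± 233 CPM (SD, n = 4) was separated from that of the next subtype, EN4, at 581 ± 66.8, and this was the 1 pair of 24 neighbours in the order whose ranges did not overlap. The median IN3 nucleus had 3, 5, 10 and 17 Reln UMIs at the 4 stages, and the median nucleus of the other inhibitory subtypes had 0 at each stage. Of 185 nuclei with 20 or more Reln UMIs, 89 were IN3 nuclei.

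**Figure D4:**
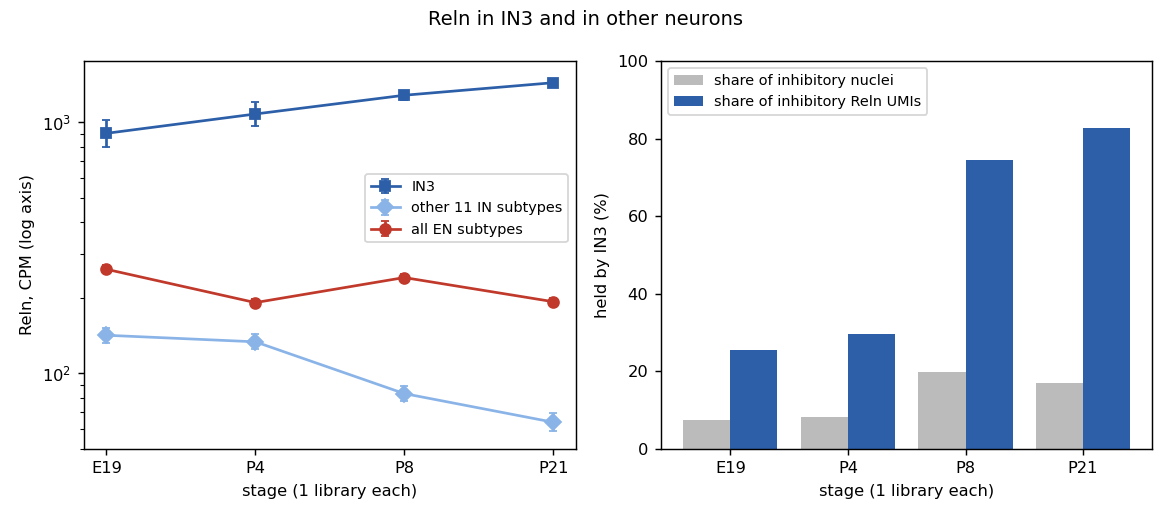
Left, Reln level (y axis, CPM, log axis) in IN3, in the other 11 inhibitory subtypes together and in all excitatory subtypes at each stage (x axis), with 95% Poisson intervals for counting error; right, share (y axis, percent) of inhibitory nuclei (grey bars) and of inhibitory Reln UMIs (blue bars) held by IN3. IN3 lies above the rest at each stage, the other inhibitory subtypes go from 142 to 63.8 CPM, and the IN3 share of Reln UMIs goes from 25.4% to 82.8%.

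The share of IN3 among inhibitory nuclei was 7.50%, 8.27%, 19.8% and 17.0% from E19 to P21. It held 25.4%, 29.7%, 74.5% and 82.8% of the inhibitory Reln UMIs. Whether more IN3 cells were present or more of their nuclei were captured cannot be told apart with 1 library per stage. The other inhibitory subtypes together held 142, 133, 83.0 and 63.8 CPM, and excitatory neurons were 1.83, 1.43, 2.90 and 3.02 times as high as they were.

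From E19 to P21 the Reln level in IN3 differed 1.59-fold (1.40 to 1.81), that in the other inhibitory subtypes 0.450-fold (0.404 to 0.501) and that in excitatory neurons 0.743-fold (0.705 to 0.782). Relative to the other inhibitory subtypes IN3 was 6.38 times as high at E19 and 22.5 times at P21. Intervals of single subtypes lay below 1 in 9 of 12 inhibitory subtypes and above 1 in 1, which was IN3. Of 11 excitatory subtypes 8 lay below 1 and 0 above, and EN1, EN2 and EN3 were the subtypes whose intervals held 1. IN6 went furthest down, to 0.0552 of its E19 level (0.0107 to 0.180).

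Among excitatory subtypes EN4 led in Reln, with 614, 599, 628 and 482 CPM. EN2 held 480, 346, 768 and 463 CPM, with no order by age. EN12 went from 691 to 326 CPM. At the low end EN6 averaged 14.5 ± 10.5 CPM, below the non-neuronal background in each library, and IN11 went from 27.3 to 2.20 CPM.

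Astrocytes had Reln above the other non-neuronal classes, at 148, 129, 166 and 148 CPM, or 4.11 to 7.30 times the pooled background. The 2 astrocyte subtypes parted after P4. Fibrous astrocytes held 194, 124, 436 and 423 CPM and protoplasmic astrocytes 136, 130, 108 and 104. The astrocyte marker Aqp4 also differed in fibrous astrocytes, at 163, 204, 1308 and 1848 CPM, against 158, 321, 463 and 547 in protoplasmic ones. Whether the fibrous label held like nuclei at each stage was not tested. Fibrous astrocyte nuclei without a single UMI of the transmitter genes Gad1, Gad2, Slc32a1 and Slc17a6 held 205, 210, 414 and 485 CPM of Reln. They numbered 19 to 34 per library. Each transmitter gene was at 8.82 to 68.2 CPM in this subtype, so a nucleus can lack their UMIs through sampling alone. The source of the astrocyte Reln UMIs was not tested.

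Overlap between the genes in single nuclei was described after thinning to 2300 UMIs. In IN3, 36 of 469 nuclei had a Nos1 UMI, and 35 of these 36 (97.2%) also had a Reln UMI, which 78.3% of all IN3 nuclei had. Thinned to 4000 UMIs, with shallower nuclei left out, the same group had 51 of 56 (91.1%) beside 84.5%. As deposited, 97 of 99 Nos1 nuclei of IN3 had Reln. In IN2, 2 of 60 Nos1 nuclei (3.33%) had Reln, and 7.94% of all its nuclei did. IN12 had Reln in 3 of 16 Nos1 nuclei (18.8%), beside 18.9% of all its nuclei.

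In all excitatory neurons 71 of 184 Nos1 nuclei had Reln (38.6%), against 27.2% of excitatory nuclei. At 4000 UMIs there was no such excess, with 100 of 262 (38.2%) against 37.2%. Calb1 and Reln were found together in 49 of 229 Calb1 nuclei (21.4%), and at 4000 UMIs in 99 of 331 (29.9%), both below the shares of all excitatory nuclei with Reln just given. EN6, the subtype with most Calb1, had 1 Reln nucleus among 45 with Calb1, and 2.97% of all its nuclei had Reln. Calb1 and Calb2 met in 12 of 229 Calb1 nuclei (5.24%), beside 5.23% of all excitatory nuclei, and at 4000 UMIs in 35 of 331 (10.6%) beside 8.47%. These shares mix subtypes and stages and carry no test.

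Across the 25 neuron subtypes Nos1 and Reln had a Pearson correlation of 0.47 of their log2(CPM + 5) levels, and the other 9 pairs ranged from −0.24 to 0.12. Genes whose levels followed those of 1 of the 5 most closely over these subtypes were named by rank. For Calb1 they were Ptprz1, a receptor-type phosphatase (r = 0.79), Gabrb1, a GABA-A receptor subunit (0.78), and Dlgap3, a postsynaptic scaffold protein (0.78). For Reln they were the potassium channel gene Kcnk12 (0.76), the homeodomain factor Meis2 (0.74) and G630016G05Rik (0.69).

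Among the genes named for Nos1 were Ank3, which encodes ankyrin-G (0.69), and Amph, which encodes amphiphysin (0.69). For Calb2 the rule named Nhsl2 (0.76), the glycine receptor gene Glra2 (0.69) and Arfgap3 (0.67), and for Pvalb the dystrophin gene Dmd (0.71), Plekhd1 (0.69) and Ccnt2 (0.65). Over the 96 points of subtype and library the value of Nhsl2 with Calb2 was −0.021 and that of Ank3 with Nos1 was 0.12, so neither likeness held there. Other genes named had 0.53 to 0.62 with Calb1, 0.43 and 0.56 with Calb2, 0.50 to 0.57 with Pvalb, 0.51 with Nos1 and 0.37 to 0.70 with Reln, the highest being that of Meis2. Calb2 and Pvalb did not reach 50 CPM in any subtype summed over libraries, so their orders rest on few UMIs. All these points share libraries, depth and the clustering that defined the subtypes, and the correlations are descriptions.

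Genes of other calcium-binding proteins and of the pathways were read from 3 lists. The EF-hand list held 45 calcium buffers and sensors, not all of which have an EF-hand, Calr being 1 without it. Of these 45 genes 24 reached 20 CPM, and from E19 to P21 in all neurons 3 were called higher and 3 lower. The shares over all 7713 genes tested were 5.21% and 10.5%. Cabp1 (log2 ratio 1.56), Kcnip4 (1.36) and Sparcl1 (1.35) were higher, and Calr (−1.72), Calm3, a calmodulin gene (−1.46), and Nucb2 (−1.01) were lower. The median was −0.37, beside −0.05 over all tested genes. Of the 5 genes of interest 4 were tested in this comparison and 0 were called in either direction, since Calb1, with 1.00, and Calb2, with −0.97, stayed just inside the limit.

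The nitric oxide list, 26 genes of which 18 were tested, had 1 called higher, the phosphodiesterase gene Pde10a (1.64), and 3 called lower, Ddah2 (−2.24), Dynll1 (−2.03) and Ddah1 (−1.18), against the same 5.21% and 10.5%. Ddah1 and Ddah2 encode enzymes that break down an inhibitor of nitric oxide synthase, and Dynll1 a dynein light chain that binds Nos1 protein. Nos1ap, an adaptor of Nos1, stood at 0.97 and the phosphodiesterase gene Pde5a at 0.93. The list's median was 0.36. Between inhibitory and excitatory neurons the phosphodiesterase Pde5a (−1.24) and the cGMP-dependent kinase Prkg2 (−1.10) were the 2 of 18 called lower in inhibitory neurons, against 1.17% of all 8209 genes tested, whereas Nos1ap had 0.67, Pde9a 0.62 and Ddah1 0.26. The lowest value after those called was −0.15 for Dlg4.

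Of 34 reelin pathway genes 29 were tested, with 1 called higher, Adamts3, a protease that cleaves reelin (1.59), and 3 called lower, Efnb3 (−2.59), the actin regulator Cfl1 (−2.59) and the Cdk5 activator Cdk5r1 (−1.92). Over all genes tested 5.21% were called higher and 10.5% lower, so the list's count lay near the background. Pafah1b1 had 0.28. The median was −0.30. Between the neuron classes 0 of 30 were called in either direction, with Adamts3 at −0.48, the receptor gene Vldlr at −0.23 and Dab2ip at −0.17 as the lowest values and Cfl1 (0.31), Efnb3 (0.28) and Crkl (0.15) as the highest. Of the EF-hand list 1 of 26 was called lower in inhibitory neurons, the calcium-binding protein Necab1 (−1.45), and 0 higher, against 1.17% lower and 0.962% higher of all genes tested. Beside a median of 0.05 over all tested genes in this comparison, the medians were 0.00 for the EF-hand, 0.09 for the nitric oxide and −0.01 for the reelin list. Kcnip4 (−0.55) and Necab3 (−0.47) were next at that end, and Kcnip1 (0.84), Cabp1 (0.33) and Kcnip3 (0.30) were at the other end of the EF-hand list.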

How the data were processed

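Per the labels' protocols, superior colliculus of several mice was pooled per stage, nuclei were purified on sucrose, and libraries were made with 10x Genomics 3′ chemistry. Per the submitters' processing notes, Cell Ranger 3.0.2 and mm10 were used. The authors deposited UMI counts per gene and nucleus, not normalised, with a table of stage, class and subtype per nucleus; no source used here gives the filters, the handling of doublets or how types were named, and no further filter was applied. Of 31053 gene identifiers 31011 matched GENCODE M21.

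From the deposited counts, UMIs were summed per library and class or subtype (Python 3.11.15, numpy 2.4.6, scipy 1.17.1) and scaled to CPM. Subtype means ± SD use libraries with at least 20 nuclei of the subtype. Intervals of folds are exact conditional intervals. Library and class sums gave log2 ratios with a pseudocount of 5 CPM, which understates changes of low genes; values of 0 were given 3 counts as upper limit. With 1 library per stage, and classes annotated on the same nuclei, no p-value was computed. Named genes are the 5 members and the 3 genes most alike each (Pearson r over subtypes, at least 50 CPM). Also named are the 3 largest values at each end of 3 lists (105 genes). The lists cover EF-hand and other calcium-binding genes, nitric oxide signalling and reelin signalling. Members, lists and rules were chosen with earlier results of these data known, and the background classes, IN3, EN6 and the single nuclei described were chosen after values were seen. Some genes that these rules name are not reported here. Scripts were tested on simulated data.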

Additional observations from a re-analysis of the deposited data

Results flagged for a closer look

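Reln moved in opposite directions in the 2 neuron classes between the E19 and P21 libraries. Its log2 ratio of P21 to E19 was −0.42 in the excitatory class and 0.75 in the inhibitory class. With 1 library per stage the difference between the classes was not tested. In the same comparison the other inhibitory subtypes without IN3 were at 0.450 of their E19 level (0.404 to 0.501), the same direction as excitatory neurons.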

How the results depend on the processing

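Stages could not be tested because each had 1 library. The class ratios were paired within libraries, and no test was computed for them because the classes were annotated on the same nuclei. The log2 ratio of P21 to E19 in all neurons kept its direction for Calb1, Calb2, Pvalb and Nos1 in each alternative run. For Calb1 the value of 1.00 became 1.22 with a pseudocount of 1 CPM, 0.60 with 20 CPM, 1.37 after thinning and 0.65 without EN6. For Calb2 −0.97 became −1.24, −0.54 and −1.35 in the same order for the first 3 of these. For Pvalb 1.43 became 3.13 and 0.52 with 1 and 20 CPM. For Nos1 0.28 became 0.62 with subtypes weighted alike and 0.13 without IN3. The Reln value of 0.06 was 0.16 with median-of-ratios scaling, −0.14 with nuclei weighted alike, −0.44 with subtypes weighted alike, −0.16 after thinning and −0.61 without IN3.

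The inhibitory to excitatory ratio of Pvalb went from 0.04 to 0.14 with 1 CPM and 0.25 after thinning, that of Nos1 from 0.49 to 0.34 with 20 CPM, and that of Reln from 0.06 to −1.09 without IN3. Within single libraries it changed sign or reached 0 in 0 of 44 alternatives for Calb1 and for Nos1, 1 for Calb2, 5 for Reln and 6 for Pvalb. The correlation of Nhsl2 with Calb2 was −0.021 over subtype and library points. IN12 had under 50 nuclei in each library, so no value was given with that minimum. The alternatives without IN3, without EN6 and without the nucleus with most UMIs were added after seeing the data. Low UMI numbers limit Pvalb most, with 241 in all neurons; the causes of the shifts were not tested.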
